A study of Mus musculus with 6 samples.

Results

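The clock genes described here are 10 repressors and output factors of the circadian oscillator: the period genes Per1, Per2 and Per3, the cryptochrome gene Cry1, the REV-ERB receptor genes Nr1d1 and Nr1d2, the helix-loop-helix repressor genes Bhlhe40 and Bhlhe41, and the bZIP factor genes Dbp and Nfil3. They were chosen by symbol, through the RefSeq transcript that each array probe names, which gave 17 of 56605 probes. Per1, Nr1d1 and Bhlhe40 had 1 probe each and the other 7 genes had 2. The values come from 6 arrays, 3 of untreated C8D1A cells (Control) and 3 of C8D1A cells treated with pulsed radiofrequency (PRF), a current given in short high-frequency bursts. C8D1A is a cloned mouse astrocyte line, so all 6 arrays share 1 genetic background. Every culture was grown for 6 days with 10% serum and then kept without serum for 24 h before use, the controls included. The series text speaks of 3 independent experiments, and the p-values below measure the spread between them. The sources used here give neither the settings of PRF nor the time between treatment and RNA extraction.

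In PRF-treated cells Nfil3 was 4.62-fold higher than in controls, Bhlhe40 1.43-fold and Nr1d1 1.36-fold. By 1 of 2 probes each, Cry1 was 1.71-fold and Bhlhe41 1.57-fold higher, and Dbp was 1.27-fold lower. Under 18 alternative ways of processing, the difference of Bhlhe40 failed to pass in 9, of Dbp in 7 and of Nr1d1 in 4. Per1 had the next largest difference among the tested probes of the 10 genes after Nfil3, 2.20-fold, but its 3 PRF arrays were far apart and the difference did not pass the test. Per2, Per3 and Nr1d2 did not pass. Of the 17 probes 15 were bright enough to be tested, and 7 of these passed, 6 upward and 1 downward. That is 46.7% of them, where 31.1% of all 34838 tested probes passed (18.4% upward and 12.7% downward). The median difference of the 15 probes was 0.44 on the log2 scale, and that of all tested probes 0.018.

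The circadian clock is a feedback loop of transcription that runs in nearly every cell, astrocytes included. CLOCK and BMAL1 bind E-box sequences and switch on the Per and Cry genes, whose proteins return to the nucleus and inhibit CLOCK and BMAL1. The REV-ERB receptors form a further loop: they bind ROR elements and repress the gene of BMAL1 (listed as Arntl), against the activating ROR receptors. DBP activates and NFIL3 represses through shared D-box sequences, and BHLHE40 and BHLHE41 compete at E-boxes. Several of these genes, Per1 above all, also respond quickly to outside signals such as cAMP, growth factors and glucocorticoids.

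Promoters of the members show how these elements are distributed among them. RefSeq promoter windows (build GRCm38.p6), which reach from 250 bases before the annotated start to 50 after it, were matched for 8 of the 10 genes, 9 windows in all since Per1 has 2. They were searched on both strands for CACGTG (E-box), CACGTT (E-prime box), TTANNTAA (D-box), AGGTCA (core of the ROR element), TGACGTCA (cAMP response element), TGACG (its half-site, also held within the full element) and GAANNTTC (heat shock element pair). The 250 bases before the start are shown in lower case with every match in capitals, read 5′ to 3′ on the gene's strand, for the genes whose windows held an E-box or D-box and for Nfil3, which changed most.
Per1 (chr11:69098699-69098948, plus strand): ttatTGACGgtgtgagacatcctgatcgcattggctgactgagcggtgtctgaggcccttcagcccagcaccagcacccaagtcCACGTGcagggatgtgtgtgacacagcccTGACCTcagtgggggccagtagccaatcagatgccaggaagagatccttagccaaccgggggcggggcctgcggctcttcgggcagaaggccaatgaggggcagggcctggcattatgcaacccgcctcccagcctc
Per1 (chr11:69099902-69100151, plus strand): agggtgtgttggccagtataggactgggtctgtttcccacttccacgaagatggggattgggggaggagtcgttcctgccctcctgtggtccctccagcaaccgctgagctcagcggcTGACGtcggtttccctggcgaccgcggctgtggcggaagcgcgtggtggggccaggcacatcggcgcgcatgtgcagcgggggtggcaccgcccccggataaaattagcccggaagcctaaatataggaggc
Per3 (chr4:151044666-151044915, minus strand): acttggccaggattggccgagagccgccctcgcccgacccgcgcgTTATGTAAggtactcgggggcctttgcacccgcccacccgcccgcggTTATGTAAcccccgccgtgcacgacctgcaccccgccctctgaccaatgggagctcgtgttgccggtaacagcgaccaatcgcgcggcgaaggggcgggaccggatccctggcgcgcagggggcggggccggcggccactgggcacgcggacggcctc
Cry1 (chr10:85185055-85185304, minus strand): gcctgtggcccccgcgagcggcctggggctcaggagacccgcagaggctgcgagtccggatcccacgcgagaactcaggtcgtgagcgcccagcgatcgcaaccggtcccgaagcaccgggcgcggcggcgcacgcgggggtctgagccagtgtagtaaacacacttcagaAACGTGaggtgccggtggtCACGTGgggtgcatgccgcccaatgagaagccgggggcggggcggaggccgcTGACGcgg
Bhlhe41 (chr6:145865421-145865670, minus strand): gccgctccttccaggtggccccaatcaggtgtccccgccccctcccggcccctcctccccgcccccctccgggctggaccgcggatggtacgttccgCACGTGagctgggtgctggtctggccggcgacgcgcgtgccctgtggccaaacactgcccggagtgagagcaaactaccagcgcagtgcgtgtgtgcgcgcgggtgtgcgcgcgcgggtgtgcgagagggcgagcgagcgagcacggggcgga
Nfil3 (chr13:52981040-52981289, minus strand): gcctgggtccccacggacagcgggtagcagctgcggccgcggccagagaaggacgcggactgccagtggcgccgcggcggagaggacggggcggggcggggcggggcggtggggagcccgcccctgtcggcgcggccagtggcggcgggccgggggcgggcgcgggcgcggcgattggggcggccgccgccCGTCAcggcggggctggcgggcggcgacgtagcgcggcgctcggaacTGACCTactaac

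An E-box lay in 3 of the 9 windows, at the upstream start of Per1, in Cry1 and in Bhlhe41, against 7.15% of all 32851 windows. Per3 was the only member of the 8 with a D-box, and it held 2 of them, 205 and 158 bases before its start; 6.0% of all windows held at least 1. The core of the ROR element was found in Per1, Nr1d2 and Nfil3 (16.3% of all windows), and the E-prime box in Cry1 and Nr1d1 (4.68%). The half-site of the cAMP response element occurred in both Per1 windows, in Cry1 and in Nfil3 (20.8%), while the full element (1.79%) and the heat shock element pair (7.86%) had no match in the 9 windows. The Dbp window had no match to any of these motifs. A match describes the sequence and does not show that a factor binds it.

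Levels below are log2 signals relative to the 75th percentile of the same array, so 0 is the level of that percentile and 1 unit is a factor of 2. Levels of different probes cannot be set against each other, since probes bind with different strength. A probe was tested where the scanner software flagged it well above background on every array of the controls, of the PRF group or of both, and it passed where limma's adjusted p (Benjamini-Hochberg over all tested probes) was below 0.05. Groups are called separate where all PRF arrays lay above, or all lay below, every control array. They were separate for 10 of the 15 tested probes (66.7%), against 50.2% of all tested probes.

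**Figure D1:**
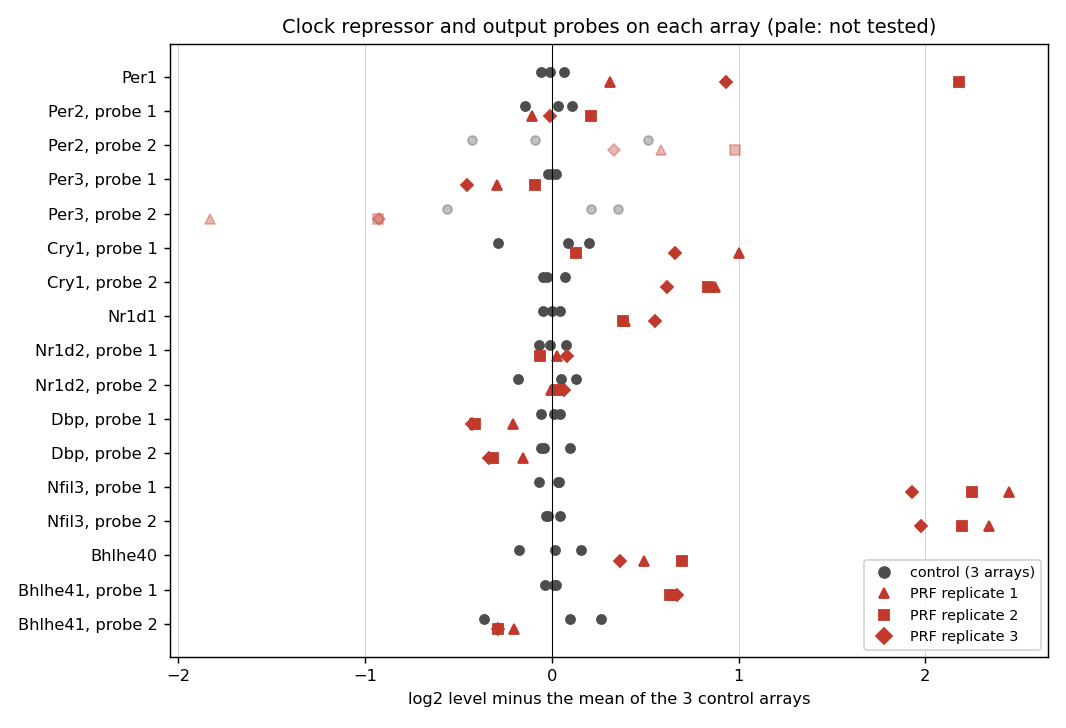
Log2 level of each of the 17 member probes on every array, minus the mean of the 3 control arrays (grey circles, control; red triangle, square and diamond, PRF replicates 1, 2 and 3; pale, not tested; the probe with the higher mean is probe 1). Nfil3 stands far to the right on all 3 PRF arrays with both probes, and the 3 PRF values of Per1 run from 2.06 to 3.93 as levels.

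Nfil3 encodes NFIL3 (E4BP4), the repressor that acts at D-boxes and is also known as an immune regulator. Its brighter probe read 0.56, 0.67 and 0.67 in controls and 3.08, 2.88 and 2.56 after PRF. The groups were separate by a wide margin, and the difference was 2.21 on the log2 scale (SE 0.14, adjusted p = 1.77e-04, limma). The other probe gave the same picture, with 0.56, 0.63 and 0.55 in controls, 2.92, 2.78 and 2.55 after PRF and a difference of 2.17 (SE 0.10, 4.50-fold, adjusted p = 8.46e-05). Of all tested probes, 96.4% had a smaller signed change than the brighter probe. Under 18 alternative ways of processing, its change stayed between 2.01 and 2.35.

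Dbp encodes the D-box activator whose rhythm is among the strongest known in peripheral tissues. Its brighter probe read 3.21, 3.31 and 3.28 in controls and 3.06, 2.86 and 2.84 after PRF. All 3 PRF arrays were below all 3 controls, and the level fell by 0.35 (log2, SE 0.08, adjusted p = 0.0222, limma). The other probe read 2.69, 2.84 and 2.70 against 2.59, 2.43 and 2.41, also separate, with a difference of -0.27 (SE 0.08) that missed the threshold (adjusted p = 0.0513). The call of the brighter probe is fragile: its adjusted p was 0.0762 and 0.0664 without control replicate 2 or 3, and 0.0773 and 0.0557 without PRF replicate 2 or 3. Scaled by spike-ins, Dbp fell by 0.54 (adjusted p = 0.00628).

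Because NFIL3 and DBP share their binding sequence, the ratio of their 2 genes on each array was also taken, in which the scaling of the array cancels. The log2 ratio of Nfil3 to Dbp was -2.65, -2.65 and -2.61 in controls and 0.02, 0.02 and -0.28 after PRF. The ratio was thus 5.88-fold higher after PRF, with separate groups (exact two-sided permutation test, p = 0.10, the smallest that 3 against 3 arrays allow, and 0.14 adjusted over the 7 ratios computed here). Nfil3 was above and Dbp below all controls on every PRF array, so the separation of the ratio was fixed by them. It is no independent support. Only the change of such a ratio has a meaning, since its level depends on the probes.

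Per1 encodes the period protein best known for rapid induction by signals that reset the clock. It read 1.69, 1.82 and 1.74 in controls and 2.06, 3.93 and 2.68 after PRF. Every PRF array was above every control array, PRF replicate 1 only slightly and PRF replicate 2 by more than 2 units. The difference was 1.14 on the log2 scale (SE 0.44, unadjusted 95% interval from 0.08 to 2.21) and did not pass (adjusted p = 0.0979, limma). The SD of the 3 PRF arrays was 0.95, larger than that of 99.9% of all tested probes, while the SD of the controls was 0.063. The test passed without PRF replicate 1 (1.56, adjusted p = 0.0346), and without PRF replicate 2 the difference was 0.62 (adjusted p = 0.0775). Arrays lay in 2 rows of the slide, and the difference was 2.21 within row 1 (control replicates 1 and 3, PRF replicate 2) and 0.56 within row 2. With normexp background correction of the median spot signals, in which a constant of 50 is added to every signal, Per1 passed (1.11, adjusted p = 0.0275). Only 1 probe, with 1 spot on each array, was matched to Per1 here, and 23611 probes of the array have no gene name here.

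Per2, the period gene whose loss shortens and then abolishes rhythms in mice, showed no such difference. Its brighter probe read -1.16, -1.08 and -1.33 in controls and -1.30, -0.98 and -1.20 after PRF. The groups overlapped, and the difference of 0.03 (unadjusted 95% interval from -0.23 to 0.30, adjusted p = 0.853) was below 0 with 4 of the other scalings. The other Per2 probe was dim, well above background on 1 control and 2 PRF arrays, and was not tested; it read -5.54, -6.15 and -6.49 against -5.47, -5.08 and -5.73.

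Per3, a period gene that is dispensable for the core oscillator, read -2.0, -1.98 and -2.02 with its brighter probe in controls and -2.30, -2.09 and -2.46 after PRF. The PRF arrays lay below the controls, by 0.28 on average (SE 0.10), and the difference did not pass (adjusted p = 0.0844, limma). It passed downward when arrays were scaled by the median (adjusted p = 0.0468), by quantiles (0.0233) or by spike-ins (0.0191), in unscaled deposited values (0.0451), and when PRF replicate 2 was left out (0.0358). The other Per3 probe was well above background on 2 control arrays and on no PRF array. It was not tested, and its controls (-5.03, -4.88 and -5.80) give a level at least 1.38-fold lower after PRF, where "at least" means against the higher, on each PRF array, of the probe's own signal and the lowest signal well above background. The log2 ratio of Per1 to Per2 rose by 1.11 and that of Per1 to Per3 by 1.42, both with separate groups (exact two-sided permutation test, p = 0.10 for each and 0.14 adjusted over the 7 ratios). Per1 was above and Per3 below all controls on every PRF array, so the separation of their ratio is no independent support. The ratio to Per2 uses the same Per1 values and is no independent support either.

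Cry1 encodes the cryptochrome that is the strongest repressor of CLOCK and BMAL1. Its probes differed in their spread. The probe with the higher mean read -3.27, -3.16 and -3.64 in controls and -2.35, -3.23 and -2.70 after PRF, so that PRF replicate 2 fell among the controls (difference 0.60, SE 0.24, adjusted p = 0.106). It passed without PRF replicate 2 (0.83, adjusted p = 0.0348) and with normexp (0.38, adjusted p = 0.0162). The other probe read -3.54, -3.42 and -3.51 against -2.61, -2.65 and -2.88. Its groups were separate and it rose by 0.78 (log2, SE 0.09, adjusted p = 0.00174, limma), or by 0.42 with normexp (adjusted p = 0.00115). The related Cry2, fixed among the comparison genes, averaged 1.91 ± 0.05 in controls and 1.72 ± 0.12 after PRF (SD, n = 3, adjusted p = 0.119), and the ratio of Cry1 to Cry2 on the same array was 1.96-fold higher after PRF, with separate groups (exact two-sided permutation test, p = 0.10 and 0.14 adjusted over the 7 ratios). The Cry1 probe was taken because it passed, so this ratio is no independent support.

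Nr1d1 encodes REV-ERB alpha, a heme-binding receptor that represses Arntl and, in many cells, Nfil3. It read -0.28, -0.24 and -0.33 in controls and 0.11, 0.10 and 0.27 after PRF. The groups were separate, and Nr1d1 rose by 0.44 (log2, SE 0.07, adjusted p = 0.00668, limma). The rise depended on the scaling: it was 0.30 in unscaled deposited values (adjusted p = 0.0851) and 0.25 when spike-ins set the scale (adjusted p = 0.0517). Nr1d2, which encodes the partner receptor REV-ERB beta, read 2.82, 2.91 and 2.77 against 2.86, 2.77 and 2.91 with its brighter probe. The groups overlapped, with a difference of 0.016 (unadjusted 95% interval from -0.16 to 0.19, adjusted p = 0.891). The other Nr1d2 probe read 1.81, 1.89 and 1.57 against 1.75, 1.78 and 1.82 (difference 0.03, unadjusted 95% interval from -0.20 to 0.26, adjusted p = 0.835). The ratio of Nr1d1 to Nr1d2 was 1.34-fold higher after PRF, with separate groups (exact two-sided permutation test, p = 0.10 and 0.14 adjusted over the 7 ratios). Nr1d1 was above all controls on every PRF array by more than Nr1d2 varied, so this separation is no independent support. Arntl, which Nr1d1 represses, rose as well, and the ratio of Nr1d1 to Arntl changed by 0.05 on the log2 scale (p = 0.60, same exact permutation test, 0.60 adjusted), with overlapping groups.

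Bhlhe40 and Bhlhe41 encode DEC1 and DEC2, repressors that respond to many extracellular signals. Bhlhe40 read 0.98, 1.12 and 0.79 in controls and 1.46, 1.66 and 1.33 after PRF, separate groups with a rise of 0.52 (SE 0.12, adjusted p = 0.0211, limma). Its call ended under 9 of the 18 alternatives. Among these were unscaled deposited values (0.38, adjusted p = 0.0991), scaling by spike-ins (0.32, adjusted p = 0.101), array row as a block (adjusted p = 0.0508) and leaving out control replicate 1 or 3 (0.0563 and 0.0613) or PRF replicate 1 or 2 (0.0566 and 0.0638). The brighter Bhlhe41 probe read -3.82, -3.76 and -3.77 in controls and -3.14, -3.15 and -3.11 after PRF. The groups were separate with little spread in either, and Bhlhe41 rose by 0.65 (SE 0.06, adjusted p = 7.15e-04). The rise was 0.37 with normexp (adjusted p = 0.00182) and 0.37 after quantile normalization (adjusted p = 0.01). The log2 ratio of this Bhlhe41 probe to Bhlhe40 changed by 0.131, with overlapping groups (exact two-sided permutation test, p = 0.5 and 0.583 adjusted over the 7 ratios). The other Bhlhe41 probe, assigned to another transcript (NM_024469 in place of NM_001271768), read -4.80, -4.34 and -4.18 against -4.64, -4.73 and -4.73. It did not pass, and its difference of -0.26 (adjusted p = 0.264) was of the opposite sign. Quantile normalization made it pass downward (-0.64, adjusted p = 0.0303), as did leaving out control replicate 1 (-0.44, adjusted p = 0.0234).

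**Figure D2:**
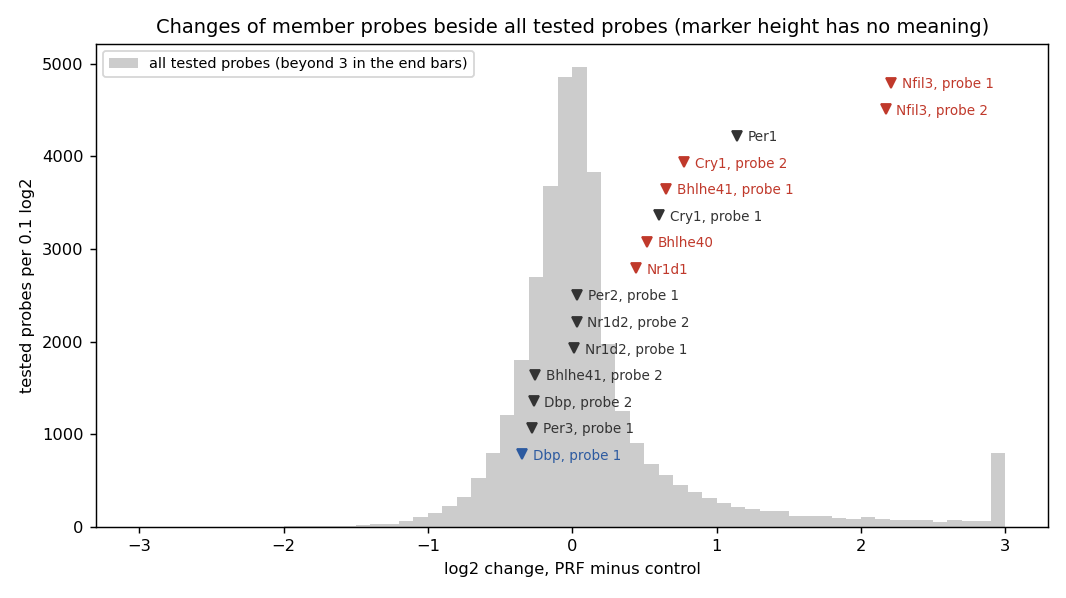
Histogram of the log2 change, PRF minus control, of all 34838 tested probes (grey; changes beyond 3 are in the end bars), with the 15 tested member probes marked (red, rose; blue, fell; black, adjusted p of 0.05 or more). Both Nfil3 probes lie in the right tail above 2, and Per2 and Nr1d2 lie at the centre.

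Within array rows 1 and 2 the difference of the brighter Nfil3 probe was 2.27 and 2.15, of the passing Cry1 probe 0.87 and 0.68, of Nr1d1 0.40 and 0.43, of Bhlhe40 0.77 and 0.27, of the passing Bhlhe41 probe 0.64 and 0.64 and of the brighter Dbp probe -0.39 and -0.36. Their directions were the same in both rows, but the groups of these probes were separate over all arrays, which fixes that in advance. Each row holds 3 arrays, and 1 group has a single array there whose spread is taken to equal that of the other group. Row 2 gave few calls over the whole array and none among the member probes, and row 1 gave 4, Per1, Cry1 and both Nfil3 probes. The only PRF array in row 1 is replicate 2, the outlying array of Per1, so the Per1 call there rests on that array and on the spread of 2 controls.

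**Figure D3:**
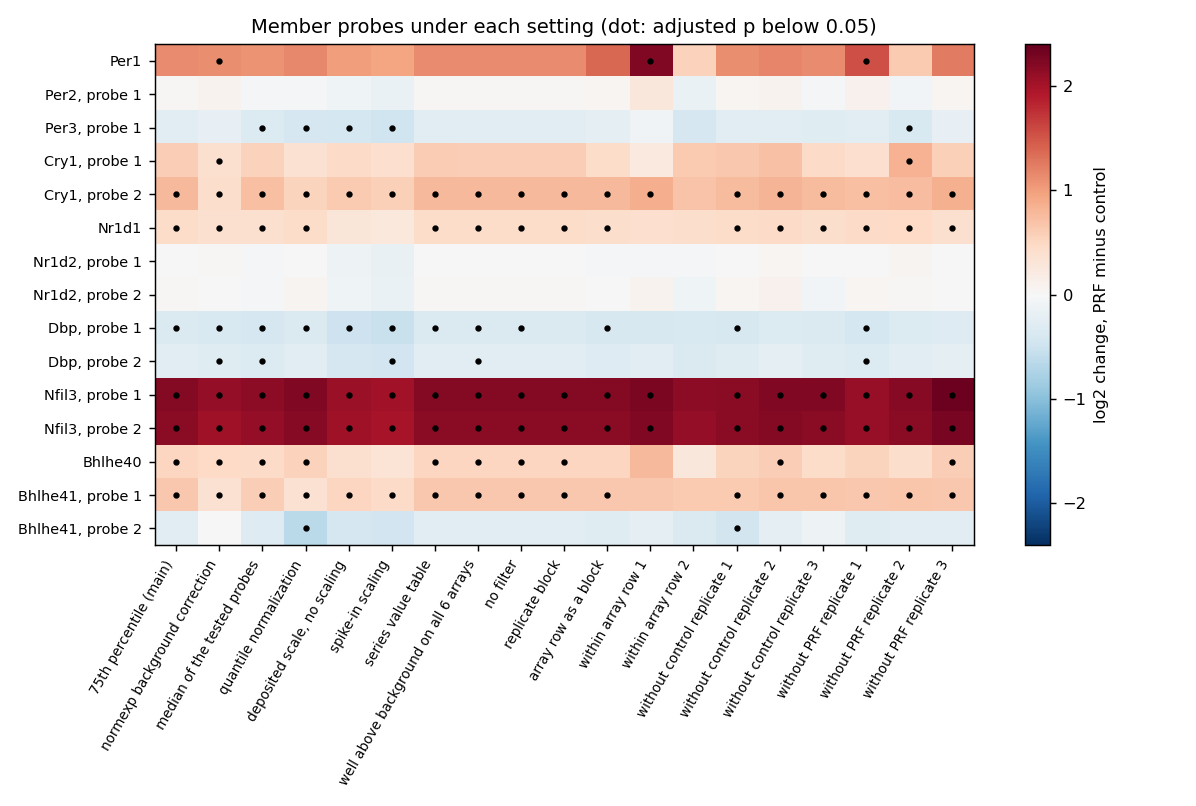
Log2 change, PRF minus control, of the 15 tested member probes (rows) under the main processing and 18 alternatives (columns); red is higher and blue lower after PRF, and a dot marks an adjusted p below 0.05. Nfil3 kept its dot in every column other than row 2, and Per1, Per3, Bhlhe40 and Dbp, among others, lost or gained theirs.

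The other genes of the clock were taken in 4 lists, each gene by its brightest probe. On that basis 29.7% of 15063 tested genes passed (16.3% upward and 13.5% downward, with separate groups for 51.1%), with a median change of -0.006. Of the 10 members 4 rose and 1 fell. In the list of activators and ROR receptors 1 of 6 tested genes rose and 0 fell, with a median of 0.16. That gene was Arntl, which encodes BMAL1: it read 0.96, 0.84 and 0.65 in controls and 1.22, 1.16 and 1.23 after PRF, a rise of 0.39 (SE 0.09, adjusted p = 0.0239, limma). Its other 2 probes also rose, by 0.73 and 0.40. Clock, the partner of BMAL1, averaged 1.95 ± 0.11 in controls and 1.97 ± 0.13 after PRF (SD, n = 3, adjusted p = 0.906). Npas2, a substitute for CLOCK, differed by 0.12 (adjusted p = 0.482). Rora, an activating ROR receptor, differed by 0.27 and missed the threshold (adjusted p = 0.0664). The count is unstable, since Arntl lost its call when control replicate 2, control replicate 3, PRF replicate 2 or PRF replicate 3 was left out, in unscaled deposited values and with spike-ins.

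Among 18 other genes of the negative limb and of PER and CRY turnover 2 rose and 1 fell (median -0.068), a split that turned with the scaling: 0 rose and 3 fell in unscaled deposited values, 0 and 9 with spike-ins, 1 and 2 with median scaling and 1 and 3 with quantiles. Csnk1e and Csnk1d, the casein kinases that phosphorylate PER proteins, rose by 0.33 (SE 0.07, adjusted p = 0.0185) and 0.24 (SE 0.06, adjusted p = 0.0289). Neither rise held without control replicate 2, control replicate 3 or PRF replicate 2, in unscaled deposited values or with spike-ins. The other 2 probes of each gene did not pass, and the changes of the Csnk1e ones were -0.02 and -0.12. Usp2, a ubiquitin protease with clock proteins among its substrates, read -0.46, -0.42 and -0.54 in controls and -1.25, -0.91 and -0.92 after PRF. It fell by 0.55 (SE 0.11, adjusted p = 0.0111), and its other probe fell by 0.70. Ciart, a further repressor of CLOCK and BMAL1, had a difference of -0.24 (adjusted p = 0.158).

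Of 17 output genes 4 rose and 1 fell, with a median of 0.18, against 1 and 1 both in unscaled deposited values and with spike-ins. Klf10, a zinc finger gene under clock control, rose by 1.04 (SE 0.17, adjusted p = 0.0062). Its other probe rose by 2.14, but was well above background on only 1 control array. Noct, which encodes nocturnin, rose by 0.57 (SE 0.12, adjusted p = 0.015), and its other probe by 0.66. Tsc22d3, a glucocorticoid target, rose by 0.53 (SE 0.15, adjusted p = 0.036), and its other probe (0.35) did not pass. Cdkn1a, a cyclin-dependent kinase inhibitor, rose by 0.41 (SE 0.09, adjusted p = 0.02). Alas1, the rate-limiting enzyme of heme synthesis, fell by 0.65 (SE 0.12, adjusted p = 0.00886), and its other 2 probes fell by 0.65 and 0.60. Tef and Hlf, which encode the activators most like DBP, had differences of 0.17 (adjusted p = 0.157) and 0.39 (adjusted p = 0.183).

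Of 15 genes that carry signals to the Per promoters 2 rose and 2 fell (median 0.084), but 0 rose and 2 fell in unscaled deposited values, and 0 rose and 4 fell with spike-ins. Srf, the serum response factor, rose by 0.63 (SE 0.17, adjusted p = 0.0315) and Sik1, a kinase that restrains CREB coactivators, by 0.37 (SE 0.09, adjusted p = 0.0276). Crtc1, such a coactivator, fell by 0.24 (SE 0.07, adjusted p = 0.0483) and Rps6ka5, a kinase of CREB and histone H3, by 0.29 (SE 0.08, adjusted p = 0.0397). The other Rps6ka5 probe did not pass. These 4 calls are weak: between 0 and 2 genes of the list passed when any 1 array was left out.

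**Figure D4:**
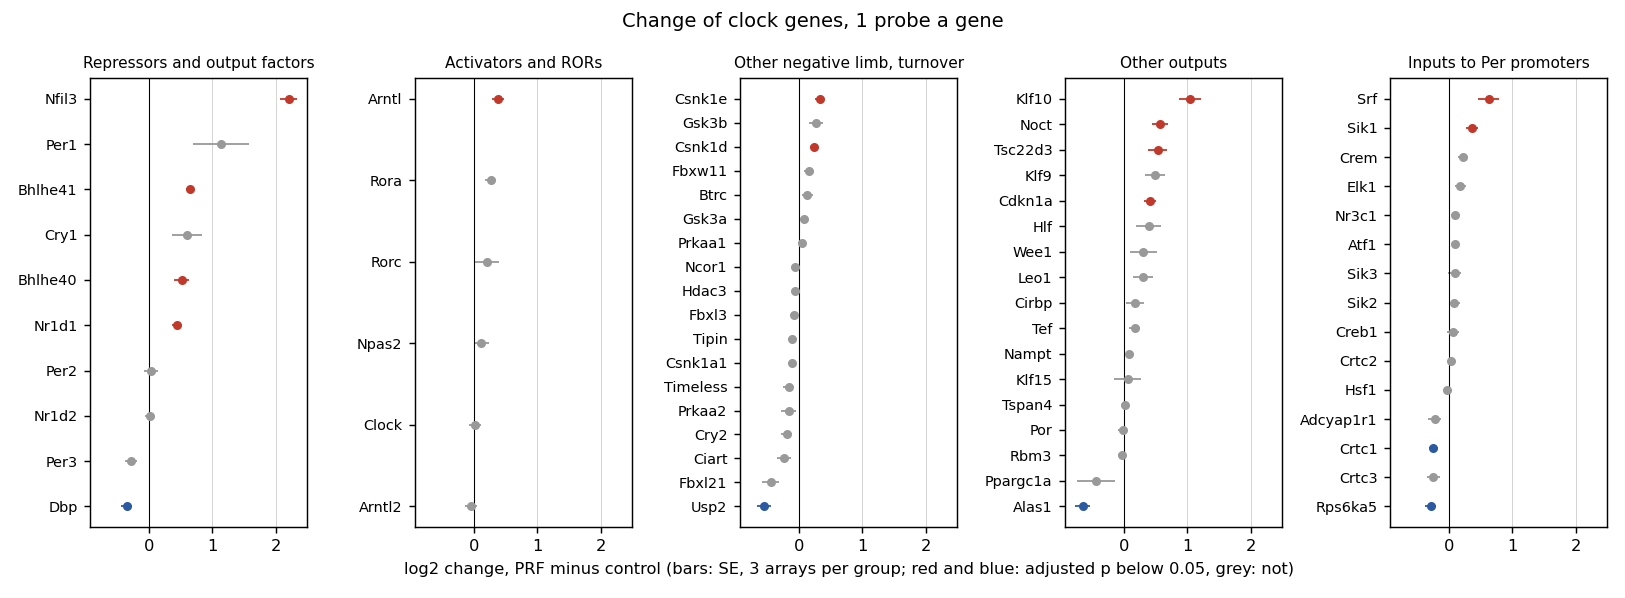
Log2 change, PRF minus control, with its SE (3 arrays per group), of the 10 members and of the tested genes of the 4 other clock lists, 1 probe a gene (red, rose; blue, fell; grey, adjusted p of 0.05 or more). Nfil3 has the largest change in the 5 panels, and Per1 the widest SE.

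Over the whole array 10833 of 34838 probes passed, 59.2% of them upward. The choice of scaling moved that share: arrays scaled by their median gave 49.5%, quantile-normalized arrays 41.4%, unscaled deposited values 38.3% and spike-ins 28.8%. The median change of all tested probes, 0.018 here, was -0.123 in the unscaled deposited values and -0.177 when spike-ins set the scale, so every member's difference is lower there by about the same amount. Between 59.5% and 63.9% of all probes were well above background on each array. Of 12 astrocyte markers 10 were well above background on every array, but Slc1a3 and Gja1 were on none, and Gfap averaged -2.76 ± 0.03 in controls and -2.68 ± 0.15 after PRF (SD, n = 3). All 7 oligodendrocyte markers were well above background as well, while 4 of 7 microglia markers (Aif1, Cx3cr1, P2ry12 and Ptprc) and Cdh5 and Cldn5 of 5 endothelial markers were on no array. The summed linear signal of the microglia markers, in units of the 75th percentile, was 8.88 to 9.28 in controls and 13.2 to 17.9 after PRF. Itgam, which also marks other myeloid cells, made up most of that sum and rose by 0.86 (adjusted p = 0.00406), whereas Tmem119 (-0.25) and Csf1r (0.16) did not pass. The sum was 0.143 to 0.149 and 0.18 to 0.213 for endothelial markers, 208 to 221 and 224 to 229 for astrocyte markers, and 173 to 179 and 157 to 171 for oligodendrocyte markers, all without overlap. Single markers did not all follow these sums. Vim (0.16), S100b (0.13) and Nes (-0.25) made up most of the astrocyte sum, and none of them passed. Glul (0.29, adjusted p = 0.0177) was the only astrocyte marker that passed. Kdr was well above background on all 3 PRF arrays and on no control array (at least 2.4-fold higher), whereas Pecam1 (-0.09) did not pass. Sox10 and Mog fell by 0.36 (adjusted p = 0.0451) and 0.40 (adjusted p = 0.0202), but Mbp rose by 0.99 (adjusted p = 0.00847). The sums of the neuron markers (24.2 to 27.4 and 25.2 to 29.7) and fibroblast markers (2.76 to 3.04 and 2.44 to 2.82) overlapped. Snap25 nevertheless rose by 0.97 (adjusted p = 0.0127) and Col1a1 by 0.44 (adjusted p = 0.0383), and Pdgfrb fell by 0.32 (adjusted p = 0.0458). Col1a2 rose by 2.72 (adjusted p = 5.16e-04). It was well above background on only 1 control array and was tested through its PRF arrays, so the size of its change is uncertain. The part of these markers in the clock results was not tested, and in bulk RNA fewer cells of a type and less RNA per cell cannot be told apart.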

How the data were processed

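RNA was measured on 6 one-colour arrays of 1 slide, scanned together. The deposited intensity values are, per the file headers, output of Agilent Feature Extraction 10.7.3.1, background-corrected within an array (processed signal), with no scaling between arrays. The authors' deposited series table held the same intensity on a linear scale: at least 99.98% of the probes of each array matched it with a relative difference of at most 0.0001. No source used here says how the authors tested them.

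Control spots and outlier spots were left out, signals were put on the log2 scale, spots of a probe were averaged, and the 75th percentile of each array was subtracted. Probes were tested by limma 3.58.1 in R 4.3.3 in a model of the 2 groups, with Benjamini-Hochberg adjustment over all 34838 tested probes. The fit was also run on simulated arrays with independent noise for each probe, which held no effects of array row or scaling. Probes were named through RefSeq transcripts of GRCm38.p6, which named 32994 of 56605 probes. The files refer to an older build (mm9), so coordinates are given for the RefSeq promoters only. Precision is limited by the number of arrays, 3 in each group.

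All 10 members were reported with every probe. From the other clock lists, passing genes (up to 4 per list and direction) and 11 genes set by name were reported. The members and lists were chosen with earlier results of these data known. Alternatives were normexp (offset 50) on median spot signals, other scalings, the series table, 2 other filters, replicate and row blocks, each row alone, and each array left out.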

Additional observations from a re-analysis of the deposited data

How the results depend on the processing

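All 18 alternatives were run, and the 7 member probes that passed kept their direction under each. The groups of all 7 were separate, so leaving out an array, taking 1 row or adding a block could not turn a direction. The 2 other filters and the series table reuse the same values. Only normexp and the other scalings could have turned one. The whole array gave 3209 calls within array row 1 and 162 within row 2, and between 7245 and 10928 with 1 array left out. The 7 called member probes became 4 and 0 within rows 1 and 2, and between 6 and 8 with 1 array left out. The 1 called activator gene became 2 with normexp and by quantiles, and 0 with no filter, unscaled deposited values, spike-ins, row as a block and within each row (0 to 1 with 1 array left out). The 5 called output genes became 2 in unscaled deposited values and when spike-ins set the scale, and 3 and 0 within rows 1 and 2 (3 to 5 with 1 array left out; 3 without any 1 control array or PRF replicate 2). The 3 called genes of the negative limb became 9, all downward, with spike-in scaling, and 0 within each row (1 to 3 with 1 array left out; 1 without control replicate 3 or PRF replicate 2). The 4 called input genes became 2 in unscaled deposited values, 1 with the replicate block (which also left 0 rises and 2 falls in the negative limb), and 0 with no filter, with row as a block and within each row (0 to 2 with 1 array left out). The replicate number equals the array column. Same-numbered arrays deviated from their group means with correlations of 0.145, -0.084 and 0.046, and differently numbered arrays with -0.174 to 0.132. These few values cannot settle whether the numbers pair the arrays, and the main model holds no pairing. With the replicate block 9422 probes and 6 member probes were called, and Dbp was lost (adjusted p = 0.0598). The Per2 and Nr1d2 probes that did not pass turned below 0 in places. Per2 read -0.023 with the median, -0.031 by quantiles, -0.11 unscaled, -0.16 with spike-ins, -0.17 within row 2, and -0.058 to 0.10 with 1 array left out. The brighter Nr1d2 probe read -0.038, -0.125 and -0.179 with the median, no scaling and spike-ins, -0.024 with the row block, -0.027 and -0.020 within rows 1 and 2, and -0.018 to 0.056 with 1 array left out. The other read -0.024, -0.11 and -0.16 in those, -0.0035 with the row block, -0.10 within row 2, and -0.061 to 0.096 with 1 array left out. The causes of these shifts were not tested. Signal over background limits the second probes of Per2 and Per3, which entered the test with no filter (adjusted p = 0.223 and 0.0783) and without PRF replicate 3 and control replicate 3 respectively (0.78, adjusted p = 0.104, and -1.51, adjusted p = 0.0256).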

Other observations

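Per1 stood apart in how far its PRF arrays spread. Of 34838 tested probes 49 had an SD over the PRF arrays at least as large as that of Per1, and Per1 was the only one of them whose mean in controls was above the 75th percentile of the array. Among the 14082 tested probes with a mean above that percentile (median SD of 0.076 over the PRF arrays), Per1 ranked 1, followed by Tdgf1, Cd300lf and Lsamp with SDs of 0.829, 0.768 and 0.726. These genes, chosen after their values were seen, were, like Per1, highest on PRF replicate 2, as were 9 of the 12 bright probes of widest spread. They differed in the lowest array. Tdgf1 read 1.90, 2.10 and 0.58 on PRF replicates 1 to 3, Cd300lf 2.88, 2.94 and 1.58, and Lsamp 1.43, 1.48 and 0.20, so that replicate 3 was low, whereas Per1 was lowest on replicate 1.

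PRF replicate 2 was the highest of the 6 arrays in 9 of 17 tested output genes (52.9%) and 16.3% of all tested probes. It was also highest in 3 of the 6 tested activators and ROR receptors, so this was not particular to the output genes. In the negative limb it was highest in 4 of 18 genes (22.2%), and among the input genes in 3 of 15. Any of the 3 PRF arrays was highest in 82.4% of the output genes and 52.4% of all tested probes. Among these output genes, Klf9 read 2.14, 2.22 and 2.01 in controls and 2.46, 2.97 and 2.42 after PRF (adjusted p = 0.0588, limma). Tsc22d3 read 2.13, 2.07 and 2.09 in controls and 2.53, 2.96 and 2.41 after PRF (adjusted p = 0.036). Wee1, a kinase that delays mitosis, read 1.82, 1.94 and 1.83 in controls and 1.83, 2.67 and 2.0 after PRF, with overlapping groups (adjusted p = 0.316). These 3 genes were singled out after their values were seen, and what they share with Per1 was not tested.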
